A study of Monodelphis domestica with 6 samples.

Results

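The platelet-derived growth factor (PDGF) and vascular endothelial growth factor (VEGF) ligands and receptors were followed in cultured cells of Monodelphis domestica, a laboratory opossum. The members were taken by gene symbol, a rule that uses no measured value, and made up 10 of the 35665 genes in the deposited tables. It comprised 4 PDGF ligands (PDGFA, PDGFB, PDGFC and PDGFD), 2 PDGF receptors (PDGFRA and PDGFRB), 2 VEGF ligands (VEGFA and VEGFC) and 2 VEGF receptors (KDR and FLT1). All 10 had a row in the files and all 10 passed the filter on low values. Messenger RNA had been sequenced from neonatal skin fibroblasts (neoSF) and from the induced pluripotent stem cells derived from them (monoiPSC). The neoSF were untreated wild-type primary cultures from the back skin of female pups of the inbred strains FD2M1 and LSD1, grown in serum-containing fibroblast medium, with 1 library per strain. The wild-type monoiPSC had been reprogrammed from neoSF of the same strains by nucleofection of OriP/EBNA episomal plasmids that carried human OCT4, SOX2, NANOG, KLF4, LIN28 and cMYC, together with a mouse p53DD plasmid. They were kept without feeders in medium with human LIF and heat stable bFGF, as 1 line per strain sequenced at passage 15 and again at passage 25, which gave 4 libraries. The passages of a line share their cells' origin, so the p-values measure only the spread between these libraries.

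PDGF ligands are secreted dimers that signal through the receptor tyrosine kinases PDGFRA and PDGFRB and drive the growth and migration of mesenchymal cells such as dermal fibroblasts, pericytes and smooth muscle cells. PDGFA and PDGFC signal mainly through PDGFRA, PDGFD mainly through PDGFRB, and PDGFB through either. VEGF ligands direct the growth of blood and lymphatic vessels. In blood vessels they act mainly through KDR (VEGFR2), while FLT1 (VEGFR1) binds VEGFA tightly and also acts as a decoy. PDGFRA also marks mesoderm and, in the blastocyst of eutherian mammals, the primitive endoderm.

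Levels are given as normalized read counts (NRC), the authors' read counts divided by a size factor for each library. NRC values were compared between libraries and not between genes, because gene lengths were not used. The neoSF libraries held 14278794 and 16982978 counts and the monoiPSC libraries 28684754 to 35564261, so that 3 counts corresponded to an NRC of 4.75 to 5.85 in neoSF and of 1.55 to 1.88 in monoiPSC. The neoSF had been sequenced in-house as short single reads and the monoiPSC by a commercial service as longer read pairs, and this difference cannot be told apart from the difference in cell type. All 9 fibroblast markers tested were lower in monoiPSC and all 8 pluripotency markers higher, against 21.6% lower and 24.3% higher over all genes tested. Of the pluripotency markers only SALL4 passed the filter on low values in neoSF as well. The others passed it through monoiPSC alone, which fixed their direction. TWIST2 and POSTN among the fibroblast markers passed it through neoSF alone. In these bulk samples fewer cells of a type and less RNA per cell cannot be told apart.

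In monoiPSC, PDGFRB, VEGFC, PDGFD, PDGFRA and PDGFC were lower than in neoSF and PDGFB was higher. Differential expression (DE) required an adjusted p no higher than 0.05 together with a change of 2-fold or more in edgeR's quasi-likelihood test over 13072 genes, and 6 of the 10 members met this, 1 higher and 5 lower. The 1 higher member, PDGFB, passed the filter on low values only through monoiPSC, which fixed its direction. Across all genes tested 45.9% were DE, 24.3% higher and 21.6% lower, so DE calls were common in this comparison, and the members' count has to be read against that share. The libraries of the cell types did not overlap for 7 of the 10 members, against 73.2% of all genes tested. PDGFA, VEGFA, KDR and FLT1 were not DE.

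**Figure D1:**
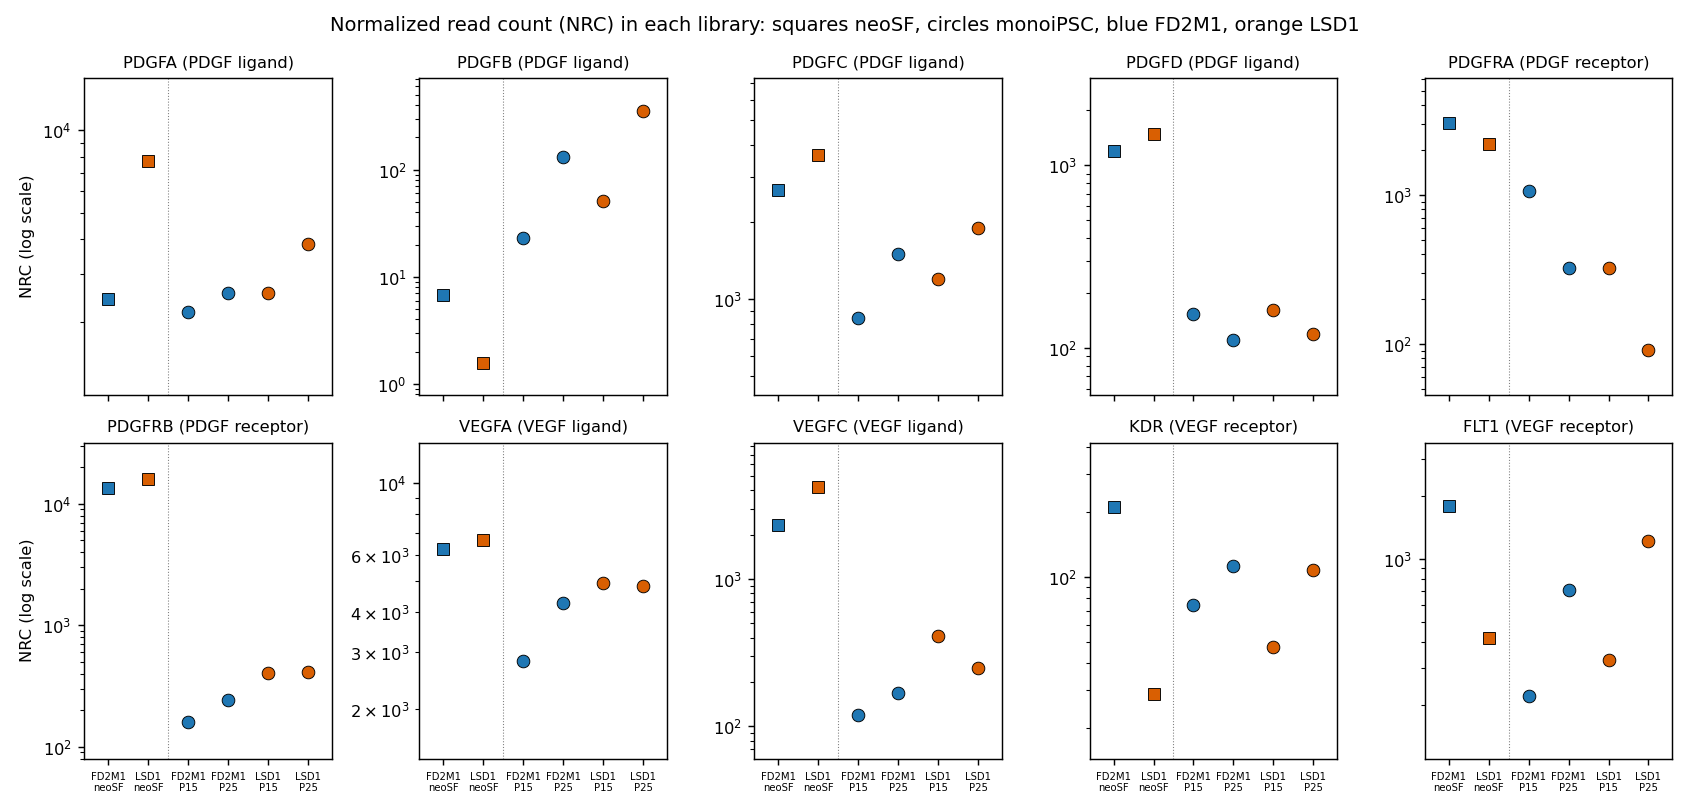
Normalized read count (NRC, log axis) of each of the 10 genes in each library, with squares for neoSF, circles for monoiPSC, blue for FD2M1 and orange for LSD1. PDGFRB lies at 13520 and 15970 in neoSF and between 159.4 and 410.1 in monoiPSC, whereas the neoSF libraries were 7.31-fold apart for KDR, 4.31-fold for PDGFB and 4.29-fold for FLT1.

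Among the PDGF ligands, PDGFD and PDGFC were lower in monoiPSC, PDGFB was higher, and PDGFA did not pass the test. PDGFD (on chromosome 4 of the MonDom5 assembly) had an NRC of 1194 in FD2M1 neoSF and 1490 in LSD1 neoSF. In monoiPSC it was 153.9 and 160.9 at passage 15 and 111.1 and 119.0 at passage 25, in FD2M1 and LSD1 respectively. The cell types were clearly apart and the monoiPSC libraries lay within 1.45-fold of each other. PDGFD fell by 3.20 on the log2 scale (SE 0.22, edgeR adjusted p = 3.7e-05), or 9.22-fold. PDGFC (chromosome 5), like PDGFD a ligand that is inactive until its CUB domain is cut off, had an NRC of 2675 and 3650 in neoSF. It was 844.5 and 1503 in the FD2M1 line at passages 15 and 25, and 1203 and 1903 in the LSD1 line. All monoiPSC libraries were below both neoSF libraries, and in each line the later passage was the nearer to neoSF. PDGFC fell by 1.12 on the log2 scale (SE 0.30, edgeR adjusted p = 0.0139). The call was lost without LSD1 neoSF, where the log2 fold change was -0.87 and the edgeR adjusted p 0.0935, and without FD2M1 monoiPSC at passage 15, where the change of -0.95 was under 2-fold.

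PDGFB, the ligand best known for recruiting pericytes to new vessels, was at the edge of detection in neoSF. On chromosome 8, it had 3.5 counts in FD2M1 neoSF (NRC 6.83) and 1 count in LSD1 neoSF (NRC 1.58). In the FD2M1 line the NRC was 22.8 at passage 15 and 131.5 at passage 25, and in the LSD1 line 50.8 and 354.9. Every monoiPSC library was above both neoSF libraries, and the monoiPSC libraries themselves spanned 15.5-fold, the widest range among the members. The log2 fold change was 5.04 (SE 1.5, edgeR adjusted p = 0.0207). It passed the filter on low values only through the monoiPSC libraries, which fixed its direction. Since so few counts stood on the neoSF side, the ratio of the scaled counts was also taken with its counting error. It was 35.1 over all 4 monoiPSC libraries (95% interval 15.0 to 108.4), 5.65 for FD2M1 at passage 15 (2.24 to 18.3) and 86.5 for LSD1 at passage 25 (36.9 to 267.2). These intervals cover counting error only. The DE call was lost without FD2M1 neoSF (edgeR adjusted p = 0.0603) and without LSD1 neoSF (edgeR adjusted p = 0.110), while the log2 fold change stayed at 6.48 and 4.25.

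PDGFA (chromosome 6), a ligand of PDGFRA that fibroblasts and early embryonic cells are known to secrete, differed between the neoSF libraries. Its NRC was 2423 in FD2M1 neoSF and 7699 in LSD1 neoSF, and in monoiPSC 2176 and 2554 in FD2M1 and 2544 and 3863 in LSD1 at passages 15 and 25. FD2M1 neoSF lay among the monoiPSC libraries and LSD1 neoSF stood 3.18-fold above it. The log2 fold change was -0.77 (95% interval -1.77 to 0.23, edgeR adjusted p = 0.151). Without LSD1 neoSF it was 0.30 (edgeR adjusted p = 0.465) and without FD2M1 neoSF -1.38 (edgeR adjusted p = 0.00794), so that its direction rested on which neoSF library was kept.

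Both PDGF receptors were lower in monoiPSC. PDGFRB (chromosome 1), the receptor typical of fibroblasts and pericytes, had an NRC of 13520 in FD2M1 neoSF and 15970 in LSD1 neoSF. In monoiPSC it was 159.4 and 243.3 in FD2M1 and 405.3 and 410.1 in LSD1 at passages 15 and 25. The neoSF libraries agreed within 1.18-fold and the cell types were far apart. PDGFRB fell by 5.50 on the log2 scale (SE 0.39, edgeR adjusted p = 4.0e-05), or 45.3-fold, and only 286 of the 13072 genes tested had a lower value. The summed NRC of 10 pericyte and smooth muscle markers was 153600 and 201700 in neoSF, of which TAGLN gave 89290 and 96830 and ACTA2 48570 and 96300. In monoiPSC the sum of the 10 markers was between 3425 and 6755. Of the 8 of these markers that were tested 4 were lower (CSPG4, ACTA2, TAGLN and CNN1) and 2 higher (NOTCH3 and ABCC9), and none of the 10 was at or below 3 counts in every library. ACTA2 and CNN1 had passed the filter through neoSF alone. The part of these markers in the PDGFRB result was not tested.

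PDGFRA (chromosome 5) fell less, and its monoiPSC libraries were spread widely. The NRC was 3036 in FD2M1 neoSF and 2193 in LSD1 neoSF. In the FD2M1 line it was 1068 at passage 15 and 325.5 at passage 25, and in the LSD1 line 324.2 and 91.0. All monoiPSC libraries were below neoSF, with 11.7-fold between the highest and the lowest of them and the level of FD2M1 at passage 25 close to that of LSD1 at passage 15. The log2 fold change was -2.43 (SE 0.76, edgeR adjusted p = 0.0250). The DE call was lost without FD2M1 neoSF (edgeR adjusted p = 0.0890), without LSD1 monoiPSC at passage 15 (edgeR adjusted p = 0.0688) and without FD2M1 monoiPSC at passage 25 (edgeR adjusted p = 0.0607). Among markers of the primitive endoderm, GATA4 and APOA2 were at or below 3 counts in all 6 libraries. The 6 markers summed to an NRC of 516.6 and 1475 in neoSF and of 2566 to 5214 in monoiPSC, of which FOXA2 gave 1118 to 3820. Of the 3 tested, FOXA2 and LAMA1 were higher in monoiPSC and GATA6 was lower. GATA6 had an NRC of 419.5 and 1079 in neoSF and of 2.5 to 28.3 in monoiPSC, and had passed the filter through neoSF alone. The list was thus split in direction. Their part in the PDGFRA values was not tested.

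Of the VEGF ligands, VEGFC was lower in monoiPSC and VEGFA did not pass the test. VEGFC (chromosome 5), the growth factor of lymphatic vessels, had an NRC of 2342 in FD2M1 neoSF and 4224 in LSD1 neoSF. In monoiPSC it was 120.1 and 168.1 in FD2M1 and 412.3 and 247.7 in LSD1 at passages 15 and 25. The cell types did not overlap, and the LSD1 libraries were above the FD2M1 libraries in each cell type. VEGFC fell by 3.70 on the log2 scale (SE 0.47, edgeR adjusted p = 0.000480), or 12.97-fold. VEGFA (chromosome 2), the main vascular growth factor and a target of hypoxia signalling, had an NRC of 6238 and 6673 in neoSF. Its monoiPSC values were 2811 and 4270 in FD2M1 and 4913 and 4822 in LSD1 at passages 15 and 25. Every monoiPSC library was below neoSF, FD2M1 at passage 15 the furthest. The difference was small, with a log2 fold change of -0.52 (95% interval -1.07 to 0.02, edgeR adjusted p = 0.0845).

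Neither VEGF receptor passed the test, and for each the neoSF of the strains differed more than the cell types did. KDR (chromosome 5), the main signalling receptor for VEGFA, had an NRC of 210.4 in FD2M1 neoSF (107.8 counts) and 28.8 in LSD1 neoSF (18.2 counts). It was 74.1 and 113.0 in the FD2M1 line and 47.3 and 108.5 in the LSD1 line at passages 15 and 25. All monoiPSC libraries lay between the neoSF libraries, which were 7.31-fold apart. The counting intervals of the neoSF values, 172.8 to 254.4 and 16.9 to 45.1, were well separated. The log2 fold change was -0.37 (95% interval -2.04 to 1.30, edgeR adjusted p = 0.669), and it was 1.67 without FD2M1 neoSF and -1.20 without LSD1 neoSF.

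FLT1 (chromosome 4) had an NRC of 1797 in FD2M1 neoSF and 418.5 in LSD1 neoSF. In monoiPSC it was 222.0 and 712.5 in FD2M1 and 328.2 and 1220 in LSD1 at passages 15 and 25. The passage 25 libraries lay between the neoSF libraries and the passage 15 libraries below both. The log2 fold change was -0.74 (95% interval -2.48 to 1.01, edgeR adjusted p = 0.416), with 0.66 without FD2M1 neoSF and -1.43 without LSD1 neoSF. The endothelial marker CDH5 (VE-cadherin) was at or below 3 counts in all 6 libraries. ERG was at 0 in all monoiPSC libraries, against an NRC of 17.95 and 67.05 in neoSF. PECAM1, CLDN5 and ROBO4, at low counts of at most 54, were higher in every monoiPSC library than in neoSF. TEK and EMCN overlapped between the cell types. The 12 endothelial markers summed to an NRC of 196.8 and 279.7 in neoSF and of 778 to 2111 in monoiPSC. Of the 5 tested, TIE1 and EGFL7 were higher and VWF was lower, and each of these 3 had passed the filter on low values only through the cell type in which it was high, which fixed its direction. Their part in the KDR and FLT1 values was not tested.

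**Figure D2:**
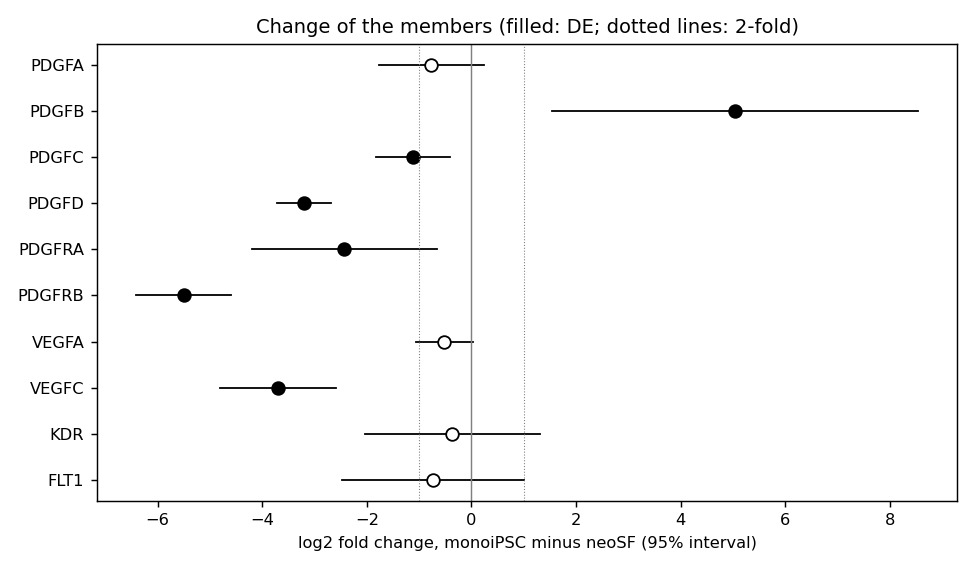
Log2 fold change of each of the 10 genes, monoiPSC minus neoSF, with a 95% interval derived from the edgeR test. Filled points are DE genes and dotted lines lie at 2-fold. PDGFRB lies lowest at -5.50 and PDGFB highest at 5.04 with the widest interval, and the intervals of PDGFA, VEGFA, KDR and FLT1 include 0.

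Between passage 15 and passage 25 of the lines, FLT1 and PDGFB were higher and PDGFRA lower at the later passage, each by more than 2-fold in both lines. PDGFB was 5.76-fold higher in FD2M1 and 6.98-fold higher in LSD1, and FLT1 3.21-fold and 3.72-fold higher. PDGFRA was 3.28-fold lower in FD2M1 and 3.56-fold lower in LSD1. No other member changed by 2-fold the same way in both lines, and among the 12252 genes whose NRC reached 20 in all 4 monoiPSC libraries 0.996% did. With strain as a covariate the log2 fold change was 2.65 for PDGFB (SE 0.33), 1.78 for FLT1 (SE 0.19) and -1.78 for PDGFRA (SE 0.21). In order of this difference PDGFRA had 1 gene of all those tested below it and PDGFB had 2 genes above it.

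Each line had 1 library per passage. With strain as a covariate, the spread in this test is how far the passage change differed between the lines. Under these conditions edgeR called 0% of all genes and 0 members. The unadjusted edgeR p was 6.79e-05 for FLT1, 0.000115 for PDGFRA and 0.000179 for PDGFB, and the edgeR adjusted p 0.1005, 0.1005 and 0.129. An unadjusted p under 0.05 was reached by 6 of the 10 members, which also included PDGFC (log2 fold change 0.73), KDR (0.89) and PDGFA (0.40), against 9.35% of all genes. DESeq2, which called 0.939% of all genes, called 3 members, namely FLT1 (DESeq2 adjusted p = 1.5e-07), PDGFRA (2.9e-06) and PDGFB (9.0e-06), and limma called none. PDGFD, PDGFRB, VEGFA and VEGFC had intervals that included 0. VEGFC was 1.40-fold higher at passage 25 in FD2M1 and 1.67-fold lower in LSD1.

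The summed NRC of the endothelial markers was also higher at passage 25, at 965.1 against 778 in FD2M1 and 2111 against 1126 in LSD1, in which EGFL7 gave 981.6 against 312.3 in LSD1. That of the primitive endoderm markers was 5214 against 2566 and 4772 against 2710, of which FOXA2 alone gave 3719 against 1118 and 3820 against 1511, while LAMA1 was 1464 against 1445 and 935.3 against 1195. That of the pericyte and smooth muscle markers was 3584 against 3435 and 6755 against 3425, and the difference in LSD1 came from DES (4213 against 768.5), which in FD2M1 was 314.6 against 562.7. The part of these markers in the passage differences of PDGFB, FLT1 and PDGFRA was not tested.

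**Figure D3:**
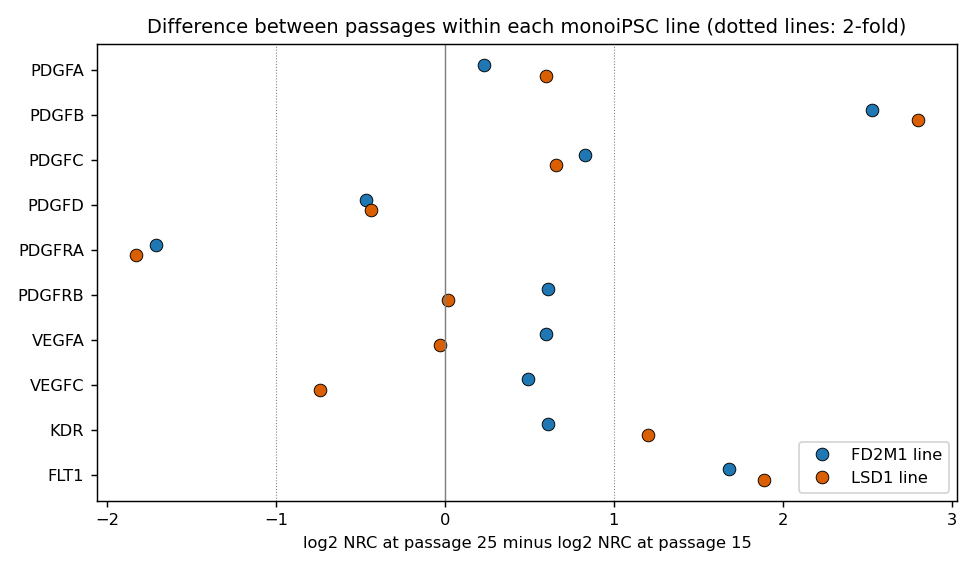
Log2 NRC at passage 25 minus that at passage 15 for each of the 10 genes, in the FD2M1 line (blue) and the LSD1 line (orange), with dotted lines at 2-fold. PDGFB (2.53 and 2.80), FLT1 (1.68 and 1.89) and PDGFRA (-1.71 and -1.83) lie past 2-fold in both lines, and VEGFC has opposite signs in the lines.

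Between the lines, PDGFRA had the largest fitted difference of the members, although at passage 15 alone VEGFC differed by 1.78. PDGFRA was lower in LSD1 than in FD2M1 by 1.72 on the log2 scale at passage 15 (log2 difference -1.72) and by about as much at passage 25 (-1.84), whereas the neoSF of the strains differed by -0.47. With passage as a covariate the log2 fold change was -1.77 (SE 0.21, edgeR adjusted p = 0.130), and 19 of the 12252 genes had a lower value. PDGFB (log2 fold change 1.30), VEGFC (1.17), PDGFRB (1.05), FLT1 (0.68), VEGFA (0.49), PDGFC (0.43) and PDGFA (0.42) were each higher in LSD1 at an unadjusted p under 0.05. With PDGFRA these were 8 of the 10 members, against 14.2% of all genes. None was called, nor was any other gene (0% of all genes by edgeR). DESeq2 called 1.57% of all genes and, of the members, PDGFRA alone (DESeq2 adjusted p = 2.7e-06). The lines were grown as 1 culture each, so strain and line cannot be told apart.

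Whether the change from neoSF to monoiPSC differed between the strains was tested with an interaction of strain and cell type, for which each strain had 1 neoSF library. No member was called by edgeR, DESeq2 or limma, against 0.0841% of all genes by edgeR, and 2 members, KDR and PDGFA, had an unadjusted p under 0.05, against 9.13% of all genes. KDR was lower than its own neoSF in both FD2M1 libraries, by -1.51 and -0.90 on the log2 scale at passages 15 and 25. In both LSD1 libraries it was higher, by 0.72 and 1.91. All monoiPSC libraries lay between the neoSF libraries of the strains, which by itself puts the lines on opposite sides of their own neoSF. Opposite directions in the lines of this kind were seen in 5.84% of all genes and in no other member. The change in LSD1 minus that in FD2M1 was 2.61 for KDR (SE 0.95, edgeR adjusted p = 0.485). For PDGFA it was -1.25 (SE 0.41, edgeR adjusted p = 0.446), as PDGFA differed from its own neoSF by -1.60 and -1.0 in LSD1 and by -0.15 and 0.08 in FD2M1. FLT1 had the interaction with the highest value among the VEGF genes, 2.82 (SE 1.31, edgeR adjusted p = 0.626), with an interval from -0.42 to 6.06.

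The balance of paired genes within a library was taken as the ratio of their raw counts, which a size factor cannot change, and is given as a description to be compared between libraries only. PDGFRB had 4.45 counts for each PDGFRA count in FD2M1 neoSF and 7.28 in LSD1 neoSF. In the FD2M1 line this ratio was 0.149 at passage 15 and 0.747 at passage 25, and in the LSD1 line 1.25 and 4.50. It was thus lower than in neoSF of the same strain in every monoiPSC library, was higher at the later passage of each line, and in LSD1 at passage 25 was close to that of FD2M1 neoSF. The ratio of PDGFB to PDGFA was 0.00282 and 0.000206 in neoSF, 0.0105 and 0.0515 in the FD2M1 line and 0.020 and 0.0919 in the LSD1 line at passages 15 and 25. PDGFC over PDGFD, the ligands that need cleavage, was 2.24 and 2.45 in neoSF and 5.49 to 16.0 in monoiPSC. VEGFA over VEGFC was 2.66 and 1.58 in neoSF and 11.9 to 25.4 in monoiPSC. FLT1 over KDR was 8.54 and 14.5 in neoSF and 3.00 to 11.3 in monoiPSC, and so overlapped between the cell types.

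**Figure D4:**
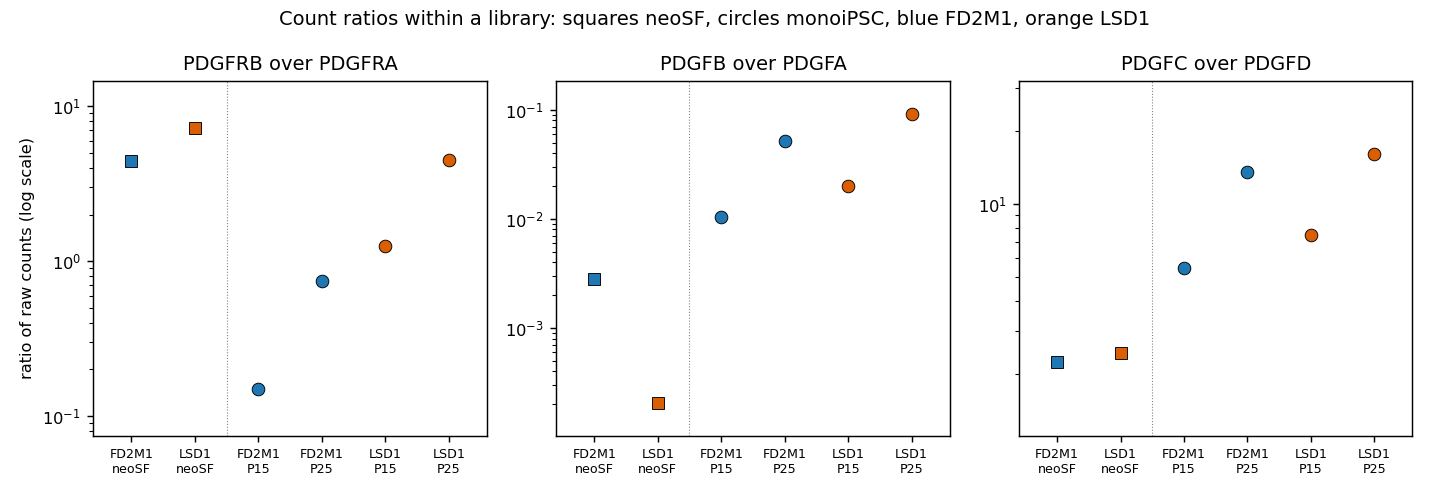
Ratio of raw counts within each library (log axis) for PDGFRB over PDGFRA, PDGFB over PDGFA and PDGFC over PDGFD, with squares for neoSF, circles for monoiPSC, blue for FD2M1 and orange for LSD1. PDGFRB over PDGFRA spans 0.149 to 4.50 in monoiPSC against 4.45 and 7.28 in neoSF.

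The genes whose pattern over the 6 libraries was most like that of a member were found from the root mean square difference of log2 NRC. Each gene was first centred on its own mean. Only genes tested between the cell types were searched, and genes named only by a LOC number were left out. Nearest to PDGFA was CPE (0.0844), with an NRC of 2991 and 8103 in neoSF and 2629 to 4788 in monoiPSC, then GALM (0.121) and SLC31A2 (0.139). Nearest to VEGFA were RIOK3 (0.0795), L3HYPDH (0.0841) and ACAT1 (0.0927). PDGFRB was most like PTK2B (0.150), followed by KLF2 (0.388) and ATP8B4 (0.393). Among the genes searched, PDGFRA had no neighbour closer than RSPO3 (0.411), ahead of PSMB9 (0.419) and TRIM14 (0.430). RSPO3, which encodes a secreted enhancer of WNT signalling, had an NRC of 2815 and 1350 in neoSF, 572 and 192.4 in the FD2M1 line and 346 and 95.4 in the LSD1 line at passages 15 and 25. Those nearest to KDR were TRIM47 (0.228), LTBP1 (0.293) and GABRE (0.351), each with more than in any other library in FD2M1 neoSF. Between members the smallest difference was that of PDGFC and VEGFA (0.370) and the largest that of PDGFB and PDGFRB (5.05).

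The receptor genes stand beside their relatives in the genome. In the gene order of the mMonDom1 assembly, PDGFRA, KIT and KDR follow each other, PDGFRB lies next to CSF1R, and FLT1 is separated from FLT3 by PAN3. KIT, the stem cell factor receptor, had 0 and 0.98 counts in neoSF and an NRC of 538.6 to 751.6 in monoiPSC. Taken over the cell types, not for each single library, KIT was at least 119-fold higher against a floor of 3 counts per library. In contrast, PDGFRA beside it was lower and KDR not DE. CSF1R, the macrophage growth factor receptor, fell by 3.13 on the log2 scale (SE 0.42, edgeR adjusted p = 0.000597), as PDGFRB did. FLT3 rose by 4.29 (SE 0.42, edgeR adjusted p = 0.000147), while FLT1 was not DE. KIT, CSF1R and FLT3 had passed the filter on low values only through the cell type in which they were high.

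In the pathway around the members, 9 of the 61 genes tested in 5 lists were higher in monoiPSC and 17 were lower, against 24.3% and 21.6% of all genes. Of the other PDGF and VEGF family genes, 1 of 6 was higher and 2 were lower, with a median log2 fold change of 0.57 against 0.08 over all genes. The VEGF coreceptor NRP1 rose by 2.65 on the log2 scale (SE 0.30, edgeR adjusted p = 0.000267), from an NRC of 459.9 and 231.2 in neoSF to between 1813 and 2286. NRP2, the coreceptor that also binds VEGFC, fell by 4.00 (SE 0.32, edgeR adjusted p = 6.3e-05). PDGFRL, a secreted protein related to the PDGF receptors, fell by 4.43 (SE 0.31, edgeR adjusted p = 3.9e-05). PGF, VEGFD and FLT4 were not DE.

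Among 6 genes of ligand processing (median -0.52), PLAT, the plasminogen activator that cleaves PDGFC, was higher and 2 were lower. Over all genes tested 24.3% were higher and 21.6% lower. PLAT had an NRC of 1131 and 701.6 in neoSF, 904.2 and 2648 in the FD2M1 line and 3706 and 7805 in the LSD1 line at passages 15 and 25, so that FD2M1 at passage 15 lay within the range of neoSF. Its log2 fold change of 2.13 (SE 0.78, edgeR adjusted p = 0.0460) lost its call without any single library except FD2M1 monoiPSC at passage 15, under RLE scaling, with strain as a block, and in limma on the deposited values (1.70, limma adjusted p = 0.112) or on log2 of NRC plus 1 (1.69, 0.111). The proprotein convertase PCSK7 fell by 2.76 (SE 0.14, edgeR adjusted p = 1.5e-05) and ADAMTS1, a metalloproteinase that binds VEGFA, by 1.69 (SE 0.21, edgeR adjusted p = 0.000422).

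Downstream of the receptors 2 of 28 genes were higher and 7 lower, against 24.3% and 21.6% of all genes, with a median of -0.26. The phosphoinositide 3-kinase subunit PIK3CB rose by 1.81 (SE 0.19, edgeR adjusted p = 0.000219) and the adaptor SHB by 1.54 (SE 0.30, edgeR adjusted p = 0.00328). The lowest values were those of the kinase MAP2K2 (log2 fold change -1.55, SE 0.13), the adaptor SHC1 (-1.44, SE 0.16) and the regulatory subunit PIK3R1 (-1.38, SE 0.38), of which PIK3R1 lost its call without FD2M1 neoSF (edgeR adjusted p = 0.164). The other 19 genes were not DE, among them PLCG1 (-0.10) and GRB2 (-0.27).

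Of 6 genes for class III receptor relatives and their ligands, KIT, FLT3 and KITLG were higher and CSF1 and CSF1R lower, with a median of 0.86. For this list and the next, the shares over all genes tested were 24.3% higher and 21.6% lower. KITLG, the ligand of KIT, rose by 1.63 (SE 0.47, edgeR adjusted p = 0.0190), a call that was lost without LSD1 neoSF (edgeR adjusted p = 0.0633) and with the passages of a line summed (0.0614). CSF1 fell by 3.31 (SE 0.27, edgeR adjusted p = 7.4e-05). In the hypoxia pathway, which acts on VEGFA, 2 of 15 genes were higher and 4 lower, with a median of -0.43. PDK1 (log2 fold change 1.99) and PGK1 (1.79), enzymes of glucose metabolism that hypoxia induces, were higher. The transcription factors HIF1A (-1.10) and EPAS1 (-1.26) were lower, as were EGLN3 (-3.40) and ADM (-3.02), which they also induce. Without LSD1 neoSF the calls of PGK1 (edgeR adjusted p = 0.0503) and EPAS1 (0.174) were lost, that of EPAS1 also without LSD1 at passage 15 (0.0673), without FD2M1 at passage 25 (0.0722) or with the passages of a line summed (0.0524), and HIF1A was at -0.99 without LSD1 at passage 15.

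**Figure D5:**
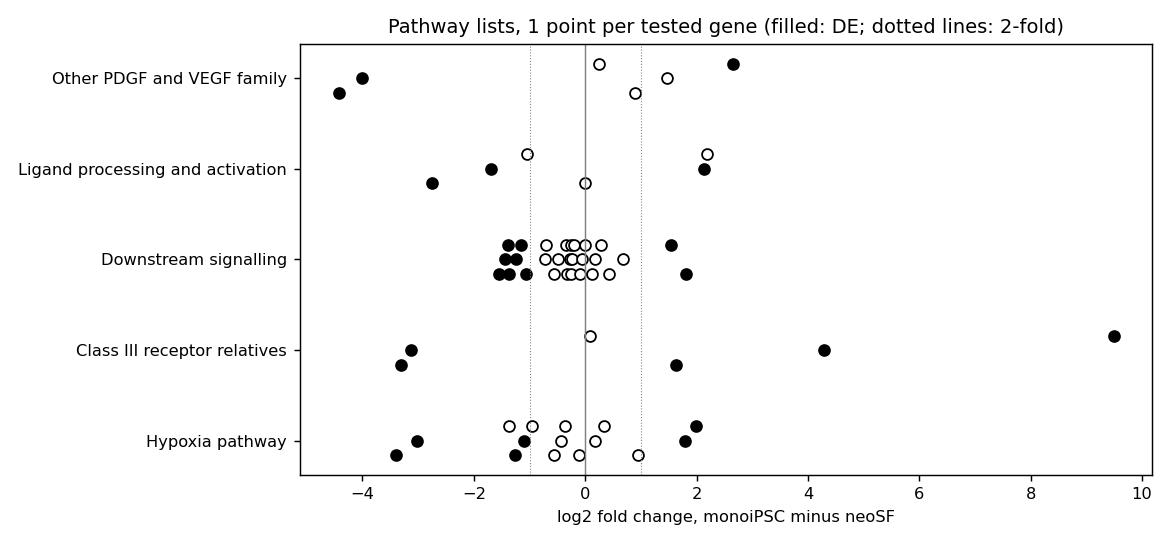
Log2 fold change, monoiPSC minus neoSF, of each tested gene in 5 pathway lists, filled where DE, with dotted lines at 2-fold. KIT lies furthest to the right, at a fitted value of 9.49 that depends on neoSF counts of 0 and 0.98, and most genes downstream of the receptors lie within 2-fold.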

How the data were processed

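RNA was sequenced from 2 neoSF and 4 monoiPSC libraries. The authors aligned reads to the MonDom5 assembly and RefSeq transcripts with StrandNGS and deposited estimated counts of reads per gene, with 86.8% of the values above 0 not whole (tolerance 1e-06). A second deposited table holds the authors' log2 values after DESeq normalization. Whether counting used strand, and whether the reads of a pair were counted separately, is not given in the sources used here. A row that names no gene and a note, 2 rows per file, were left out. NRC is 2 raised to the deposited log2 value, and is the count times 1 factor per library (0.515 to 1.95).

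Estimated counts were rounded and tested with edgeR 4.0.16 (quasi-likelihood, TMM scaling, R 4.3.3) on genes whose NRC reached 20 in each neoSF library or each of the 4 monoiPSC libraries, and, between passages or lines, in the latter. P-values were adjusted by Benjamini-Hochberg over all genes tested. Alternatives were DESeq2 1.42.0, limma 3.58.1 on the log2 values (also as log2 of NRC plus 1), RLE scaling, other filters, no covariate, strain as a replicate block, passages summed and each library left out. The scripts were tested on simulated data. The neoSF of a strain were of the passage used for reprogramming, which pairs them with their own line. The deviation of FD2M1 neoSF from its group mean was correlated with that of each monoiPSC library. At passages 15 and 25, r was 0.0407 and 0.0105 for the FD2M1 line and -0.0784 and 0.0157 for the LSD1 line. Intervals of counts are 95% exact Poisson or binomial intervals. The SE was derived from the edgeR test, as the absolute log2 fold change over the square root of the F statistic. The 95% intervals of log2 fold changes are t intervals from this SE, with degrees of freedom solved from the edgeR p-value.

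All 10 members are named. In each list the text names up to 3 DE genes with the highest and up to 3 with the lowest log2 fold change, and the genes of a count of 5 or fewer. Likeness was taken for PDGFA, PDGFRA, PDGFRB, VEGFA and KDR, with 3 genes each, leaving out genes named only by a LOC number. PLCG1, GRB2 and the markers named were chosen after their values were seen. VEGFB, PIK3R2, HRAS and BNIP3 had no row under these symbols. The members and lists were chosen with earlier results of these data known. Gene order came from the RefSeq genes of mMonDom1, whose coordinates were not used. Of the other marker lists, the 6 mesoderm markers had 5 genes with a row. Their summed NRC was 112 and 195.9 in neoSF and 122.6 to 179.3 in monoiPSC. The keratinocyte markers summed to at most 9.76, but KRT5, KRT1 and KRT10 had no row, so this covers 2 of the 5, KRT14 and TP63. The macrophage and blood markers (5 of 6 with a row) summed to 61.2 to 129.2. The melanocyte markers (4 of 5 with a row) summed to 252.8 and 402.1 in neoSF and 4601 to 15550 in monoiPSC. DCT alone gave 4372 to 15280 in monoiPSC, and it passed the filter only through monoiPSC. MITF, which gave 223.2 and 382 in neoSF, was not DE. TYR had at most 12 counts, and MLANA was lower in every monoiPSC library than in neoSF.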

Additional observations from a re-analysis of the deposited data

Results flagged for a closer look

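KDR stood out because both libraries of the FD2M1 line were below their own neoSF (log2 differences -1.51 and -0.90) and both libraries of the LSD1 line above theirs (0.72 and 1.91). The change in LSD1 minus that in FD2M1 was 2.61 on the log2 scale (SE 0.95, edgeR adjusted p = 0.485 over all genes tested). The neoSF side of the comparison rests on 1 library per strain, with 107.8 counts in FD2M1 and 18.2 in LSD1. The neoSF libraries differed by -2.87 (LSD1 minus FD2M1, log2), against a fitted difference of -0.34 between the monoiPSC lines. With each monoiPSC library left out in turn the value was 1.92 to 3.08. Those fits kept both neoSF libraries, so they cannot show how far the value depends on them. Among the members' 10 groups of 4 monoiPSC libraries, none had a highest or lowest library set apart from the others by Dixon's criterion, and the neoSF groups of 2 were too small for it.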

How the results depend on the processing

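With strain as a replicate block 1 member was DE higher and 5 lower, as without it, and among the genes named PLAT alone lost its call (log2 fold change 1.78, edgeR adjusted p = 0.0798), while VEGFA reached an edgeR adjusted p of 0.0489 at a change under 2-fold (-0.54). Without each library in turn 0 to 1 members were higher, with 0 (PDGFB lost) without FD2M1 neoSF and 0 without LSD1 neoSF, and 4 to 5 were lower. The pathway genes numbered 6 to 11 higher and 15 to 19 lower. Set against neoSF alone, a comparison added after the data were seen, passage 15 gave 1 member higher and 5 lower, and passage 25 gave 1 and 4, without PDGFC (-0.80). DESeq2 called 3 members between the passages and 1 between the lines, against 0 in edgeR, and 304 genes against 11 for the difference between strains, none of them a member. Without a library and without the covariate 0 to 3 members were called between the passages, 3 of them (PDGFB, PDGFRA and FLT1) without FD2M1 at passage 25. The cause of these differences was not tested.

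Changes of sign occurred in differences that were not called. KDR was at 0.06 in limma and 0.05 in limma on log2 of NRC plus 1. Over the left-out libraries the log2 difference between the cell types was -1.20 to 1.67 for KDR, -1.43 to 0.66 for FLT1 and -1.38 to 0.30 for PDGFA. Between the passages it was -0.32 to 1.05 for PDGFRB (-0.23 without LSD1 at passage 25), -0.12 to 0.70 for VEGFA and -1.0 to 0.80 for VEGFC. Between the lines it was -0.15 to 0.34 for PDGFD (-0.12 without FD2M1 at passage 25), -0.96 to 0.22 for KDR (0.08 without FD2M1 at passage 25), -0.58 to 3.13 for PDGFB and -0.49 to 1.80 for FLT1. The leave-out fits for passages and lines had no covariate, so line and passage were unbalanced in them. At matched passages 15 and 25, LSD1 was above FD2M1 by 1.15 and 1.43 for PDGFB and by 0.56 and 0.78 for FLT1. The change in LSD1 minus that in FD2M1 was -0.49 to 0.01 for PDGFD, -0.41 to 0.41 for PDGFC and -0.08 to 0.69 for VEGFC. The calls of PDGFD, PDGFRB and VEGFC between the cell types were kept under every alternative. Depth limited PDGFB, at 3.5 and 1 counts in neoSF.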
